A study of Mus musculus with 3 samples.

Results

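Expression of the enzymes that write DNA methylation and of the core of Polycomb repressive complex 2 was described in 3 mouse tissues. The set holds 8 genes, Dnmt1, Uhrf1, Dnmt3a, Dnmt3b, Ezh2, Ezh1, Eed and Suz12, which were found through the probes whose gene name in the array files is the gene's name or an older one. All 8 were on the array, with 12 of its 41174 gene probes and 8 of its 19712 named genes. The tissues were adult liver of C57BL/6 mice aged 12 weeks, fetal liver of C57BL/6 mice at gestation day 13.5, and bone marrow of C57BL/6 mice, for which the wording of the labels does not settle whether the age of 12 weeks holds too. No genetic change or treatment is given for any of them. Total RNA of each tissue was hybridised to 1 Agilent array in 1 colour (Cy3), and neither the number nor the sex of the animals is known from the labels. With 1 array per tissue, no difference below has a replicate check and none was tested across samples. The labels state only that expression in the 3 tissues was compared.

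DNA methylation in mammals is set by Dnmt3a and Dnmt3b, the de novo methyltransferases, and copied after DNA replication by Dnmt1, which Uhrf1 brings to half-methylated sites. Polycomb repressive complex 2 methylates histone H3 at lysine 27 through either of the alternative catalytic subunits Ezh2 and Ezh1, and needs the core subunits Eed and Suz12 for activity. The fetal liver and the bone marrow are blood-forming tissues rich in dividing cells, whereas most cells of the adult liver do not divide, and Ezh2 is known as the form of dividing cells and Ezh1 as the form that non-dividing cells keep.

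A signal is the intensity of a spot after the background correction of the scanner software. A scaled level is that signal divided by the 75th percentile of gene signals on its array, which was 296.5 (adult liver), 386 (fetal liver) and 894.5 (bone marrow). Differences are given on the log2 scale after this division, and a difference of 4-fold (2 on the log2 scale) was used as the mark for a large one. The spot error given with a difference is that of the scanner software, propagated to log2, and covers the 2 spots only. The share of spots well above background was 52.6% for the adult liver array, 58.7% for fetal liver and 58.8% for bone marrow, and no spot was saturated. All 8 genes had a probe well above background in every tissue. The tissue labels were set against marker genes. The summed scaled level of 7 hepatocyte markers was 2670 (adult liver), 435 (fetal liver) and 0.151 (bone marrow), where 5 of the 7, among them the albumin gene Alb, were not well above background. For 8 erythroid markers it was 53.7, 660 and 459, and for 8 neutrophil markers 0.472, 63.8 and 1476. In the same order of tissues, 6 B cell markers summed to 1.34, 1.58 and 92.3, 6 T and NK cell markers to 6.98, 1.60 and 39.1, 6 macrophage markers to 29.3, 37.4 and 25.4, and 6 endothelial and stromal markers to 82.8, 48.2 and 44.8. Such sums are weighted to the brightest probes. In adult liver Alas2 alone gave 51.3 of the erythroid sum and Zap70 4.18 of that for T and NK cells. There 5 of the 8 erythroid and 2 of the 8 neutrophil markers were well above background. The macrophage markers differed in direction, with Clec4f highest in adult liver (13.0), Marco in fetal liver (32.4) and Cd68 in bone marrow (5.21). In bulk tissue, fewer cells of a type and less RNA per cell cannot be told apart, and this applies to every level below.

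The promoters of the genes with the largest differences are shown first, beside that of Ezh1, because cell cycle genes often carry binding sites of the E2F transcription factors there. Sequences are from RefSeq on mouse build GRCm38.p6, from 250 bases before to 50 bases after a listed transcript start, on the strand of the gene and written 5′ to 3′. All 8 genes matched the RefSeq table, with 13 listed starts. Capitals mark an E2F word, any of TTTCCCGC, TTTCGCGC, TTTGCCGC and TTTGGCGC on either strand. The window of the second listed start of Uhrf1 lies at chr17:56304063-56304362 on the plus strand, that of the third of Dnmt1 at chr9:20952574-20952873 on the minus strand, that of Ezh2 at chr6:47594981-47595280 on the minus strand and that of Ezh1 at chr11:101226414-101226713 on the minus strand. For Uhrf1 and Dnmt1 the window printed is the only one of their listed starts that holds an E2F word.
Uhrf1: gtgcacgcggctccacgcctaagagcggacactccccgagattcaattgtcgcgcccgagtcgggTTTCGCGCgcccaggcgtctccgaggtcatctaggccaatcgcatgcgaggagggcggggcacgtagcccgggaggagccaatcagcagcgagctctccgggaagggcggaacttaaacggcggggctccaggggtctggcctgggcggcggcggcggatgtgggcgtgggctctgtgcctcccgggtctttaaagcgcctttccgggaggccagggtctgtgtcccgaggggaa
Dnmt1: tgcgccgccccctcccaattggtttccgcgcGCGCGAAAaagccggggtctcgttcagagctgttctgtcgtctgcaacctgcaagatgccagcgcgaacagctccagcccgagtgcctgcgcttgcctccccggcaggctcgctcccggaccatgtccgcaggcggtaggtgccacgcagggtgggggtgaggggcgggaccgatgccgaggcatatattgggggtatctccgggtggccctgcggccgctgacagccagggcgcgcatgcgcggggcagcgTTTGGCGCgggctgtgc
Ezh2: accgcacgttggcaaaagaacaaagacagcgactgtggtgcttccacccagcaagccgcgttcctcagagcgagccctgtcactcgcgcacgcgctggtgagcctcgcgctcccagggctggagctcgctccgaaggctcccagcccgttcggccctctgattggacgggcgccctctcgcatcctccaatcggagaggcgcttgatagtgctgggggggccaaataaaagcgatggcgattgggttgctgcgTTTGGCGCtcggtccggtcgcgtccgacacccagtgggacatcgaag
Ezh1: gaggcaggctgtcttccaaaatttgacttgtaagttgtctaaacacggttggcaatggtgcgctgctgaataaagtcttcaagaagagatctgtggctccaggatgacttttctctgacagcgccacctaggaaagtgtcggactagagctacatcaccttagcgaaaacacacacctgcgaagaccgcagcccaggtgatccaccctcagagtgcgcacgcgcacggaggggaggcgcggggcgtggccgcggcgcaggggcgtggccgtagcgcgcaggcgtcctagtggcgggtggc

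The E2F word of Uhrf1 began 185 bases before the start, and that of Ezh2 began 3 bases after it. Dnmt1 had 2 such words, on opposite strands, 219 bases before and 33 bases after the start. Suz12 had 1, also 219 bases before its start, whereas no E2F word was found in the windows of Ezh1, Dnmt3a, Dnmt3b and Eed. Thus 4 of the 8 genes had the word in at least 1 window, against 2.6% of 27025 mouse genes in the same table. Each E2F word holds a CpG pair, and this share is not matched for the CpG pairs of the windows. The CCAAT word, searched on both strands, was in windows of Dnmt1, Uhrf1, Ezh2, Eed and Suz12 and in those of 41.1% of all genes. The word TTTGAA, found in many cell cycle promoters and also searched on both strands, was in windows of Dnmt1, Dnmt3b, Eed and Suz12 and in those of 20.2% of all genes. The printed windows hold 33 CpG pairs for Uhrf1, 33 for Dnmt1, 31 for Ezh2 and 23 for Ezh1, against a median of 7 over 32851 windows. Of the windows not printed, that of the first start of Uhrf1 holds 12 CpG pairs, and those of the first and second of Dnmt1 hold 2 and 12, all with no E2F word. The window of Suz12 holds 41. Among genes with no E2F word, Dnmt3a has 46, 47 and 18 at its listed starts, Dnmt3b 30 and Eed 17. These are matches of letters, and binding at them was not measured here.

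**Figure D1:**
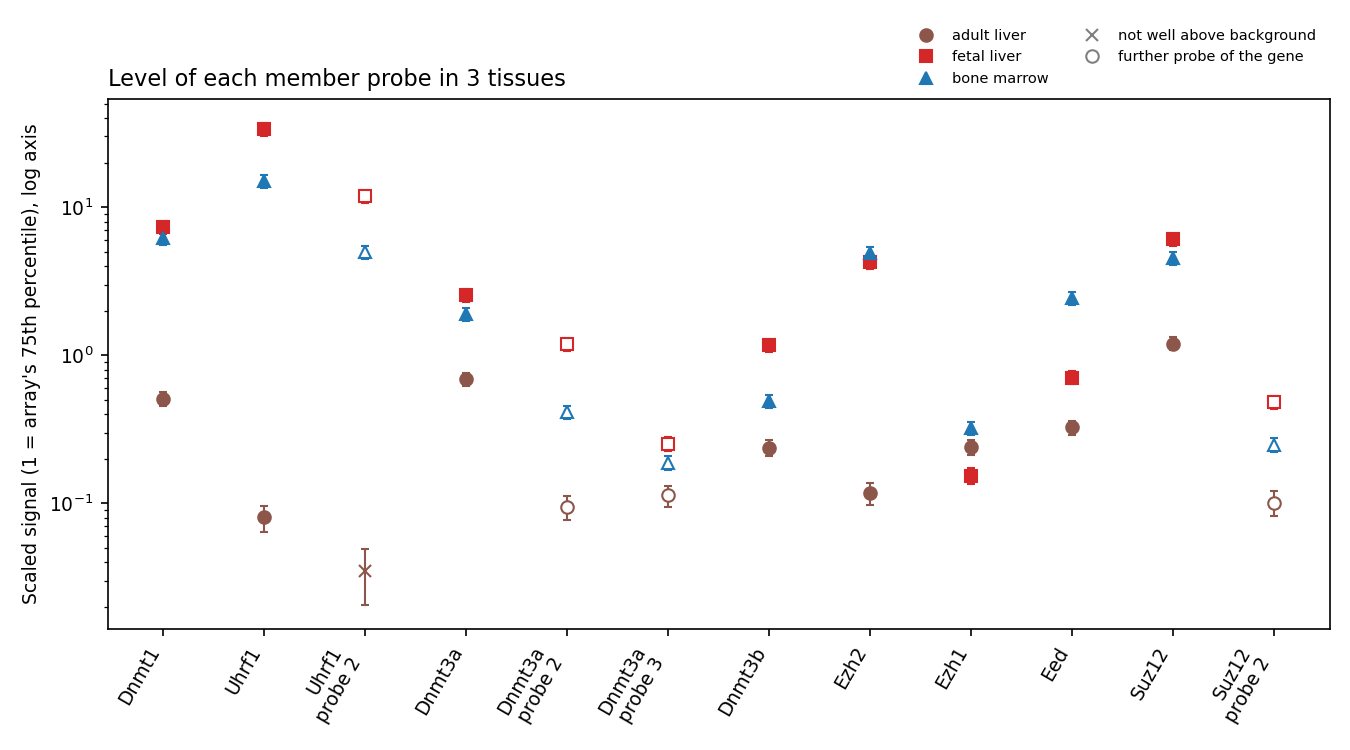
Scaled level of each of the 12 probes in adult liver, fetal liver and bone marrow on a log axis, where 1 is the 75th percentile of the array, with 1 array per tissue. Bars are the spot error of the scanner software and not a spread between animals, open symbols are further probes of a gene, and heights of different probes cannot be compared. Adult liver is lowest for every probe except that of Ezh1, for which fetal liver is lowest.

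Against adult liver, 5 of the 8 genes exceeded 4-fold towards fetal liver. These were Uhrf1 (418-fold), Ezh2 (36.4-fold), Dnmt1 (14.3-fold), Suz12 (5.07-fold) and Dnmt3b (4.89-fold). None of the 8 passed 4-fold the other way, and Ezh1 alone lay on the adult side (1.56-fold). Among 14186 genes compared, 12.1% passed 4-fold towards fetal liver, 14.1% towards adult liver and 26.2% in either direction. The median log2 difference of the 8 genes was 2.32, against 0.06 over all genes. Uhrf1 stood near the top of the array, with 19 of the 14186 genes further towards fetal liver.

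Between bone marrow and adult liver, 4 of the 8 genes exceeded 4-fold, all with more in bone marrow. These were Uhrf1 (186-fold), Ezh2 (41.5-fold), Dnmt1 (12.1-fold) and Eed (7.42-fold). Here the background was 15% of 14245 genes higher in bone marrow, 18.8% higher in adult liver and 33.8% in either direction. The median log2 difference was 2.40 for the 8 genes and -0.09 for all genes. Both comparisons use the same adult liver array, so they are not independent of each other.

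Between fetal liver and bone marrow, none of the 8 genes differed by 4-fold, where 17.6% of 14677 genes did, 9.33% with more in fetal liver and 8.3% with more in bone marrow. The differences ran from 1.24 for Dnmt3b to -1.78 for Eed on the log2 scale, with a median of 0.34 against 0.26 for all genes. This comparison depended on the scaling. Scaled to the spike-in control spots of the arrays, whose added amounts the labels do not give, the median of all measured genes moved from 0.25 to -2.10, and 2.16% of genes passed 4-fold towards fetal liver against 55% towards bone marrow. In that scaling all 8 genes were lower in fetal liver than in bone marrow, among them Dnmt1, Dnmt3a, Dnmt3b, Uhrf1 and Suz12, which lay on the fetal liver side in the reported scaling. Dnmt1 was also on the bone marrow side with scaling to the median (-0.17). Between bone marrow and adult liver the same scaling moved the median of all measured genes from -0.16 to 2.61, with 64.9% of genes past 4-fold towards bone marrow and 5.97% towards adult liver, and between fetal and adult liver from -0.03 to 0.39. Spike-in scaling left the direction of each of the 8 genes between the 2 livers as it was.

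**Figure D2:**
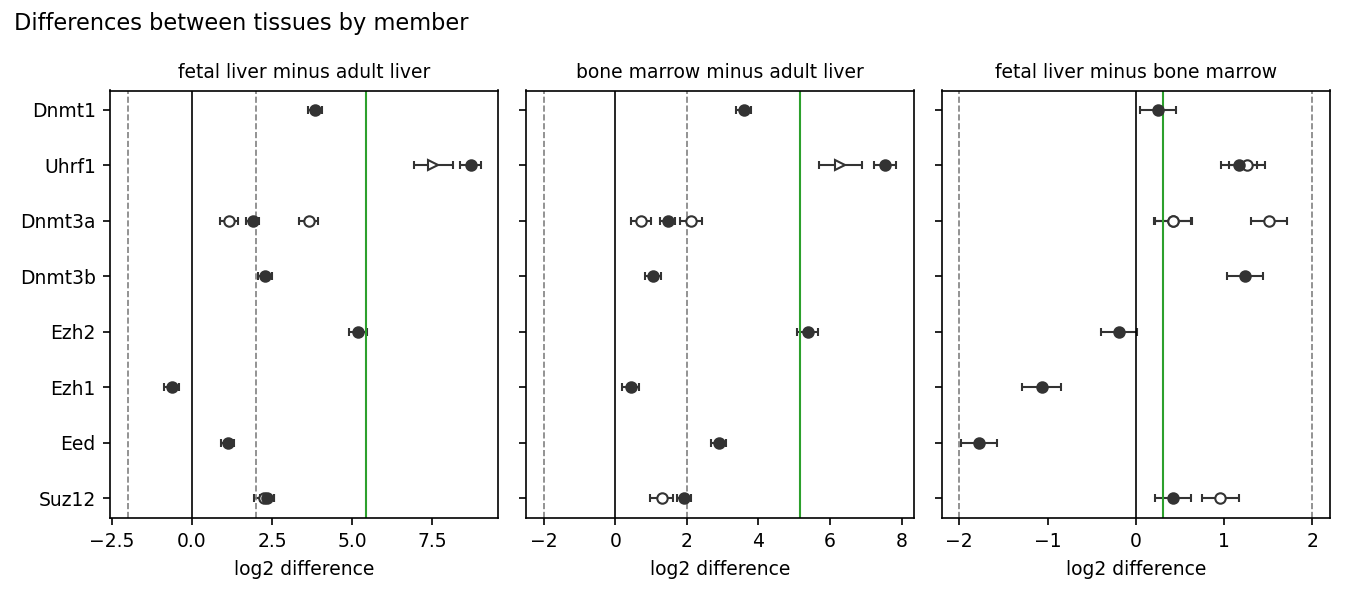
Log2 differences of the 8 genes for each pair of tissues, with the reported probe as a filled circle, further probes open, bounds as triangles and bars for the spot error. Dashed lines mark 4-fold and the green line the median of 12 proliferation genes. Uhrf1 lies furthest to the right in both comparisons with adult liver, and no gene passes 4-fold between fetal liver and bone marrow.

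Among the genes that copy methylation, Dnmt1 was measured by a probe at chr9:20711973-20712341 (mm9, minus strand), whose 60 bases spread over 369 bases of genome and so cross an exon junction. Its adult liver signal was 151, its fetal liver signal 2820 and its bone marrow signal 5500, which are scaled levels of 0.509, 7.31 and 6.15. The level was thus low in adult liver and close in both blood-forming tissues. The log2 difference was 3.84 from adult to fetal liver and 3.59 from adult liver to bone marrow, each with a spot error of 0.21. Fetal liver and bone marrow differed by 0.25 with a spot error of 0.20, and this small difference turned to -0.17 with scaling to the median and to -2.10 with spike-ins.

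Uhrf1, the partner that recognises half-methylated DNA, had its brighter probe at chr17:56462657-56462716 (mm9, plus strand), with a signal of 23.9 (adult liver), 13000 (fetal liver) and 13400 (bone marrow). The scaled levels were 0.0806, 33.7 and 14.98. The adult liver signal lay just above 18.9, the lowest that was well above background on that array, so that the size of the fold is uncertain while its direction is shared by both probes. The log2 difference between the livers was 8.71 with a spot error of 0.32, and it was 6.94 with a background correction by normexp. The second probe, at chr17:56462554-56462613, gave 4600 in fetal liver and 4460 in bone marrow but did not stand well above background in the adult organ (10.4). By this probe Uhrf1 exceeded its adult liver level at least 187-fold in fetal liver and at least 78.2-fold in bone marrow. Between fetal liver and bone marrow the probes gave 2.25-fold and 2.39-fold towards fetal liver, which spike-in scaling turned to -1.18 on the log2 scale for the brighter probe.

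Set against each other, Uhrf1 differed more than Dnmt1. The log2 difference between fetal and adult liver was larger by 4.86 for Uhrf1, a 29.1-fold change in the ratio of the 2 probes with a spot error of 0.38 on the log2 scale. From adult liver to bone marrow the ratio changed 15.4-fold. A scale factor common to an array cancels in such a ratio, so spike-in scaling leaves it as it is. With normexp the changes in the ratio were smaller, 3.52 and 2.62 on the log2 scale.

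Of the de novo enzymes, Dnmt3a had 3 probes. The reported one, at chr12:3906868-3907649 (mm9, plus strand, across an exon junction), gave signals of 204, 985 and 1700 in adult liver, fetal liver and bone marrow, or scaled levels of 0.688, 2.55 and 1.90. Fetal liver stood 3.71-fold above adult liver, just under the 4-fold mark, and bone marrow 2.76-fold above it. The probe at chr12:3908227-3908286 gave 28.1, 457 and 371, which is 12.5-fold between the livers and 4.38-fold between bone marrow and adult liver. The probe at chr12:3912590-3912649 gave 33.7, 98 and 169, or 2.23-fold and 1.66-fold. For the reported probe, fetal liver minus bone marrow was 0.43 on the log2 scale, 0.01 with scaling to the median and -1.93 with spike-ins. All 3 probes had adult liver lowest and fetal liver highest in scaled level, but they disagreed on whether the difference from adult liver passed 4-fold. The array file lists the first probe under another Dnmt3a transcript than the other two, and the part of transcript choice in the disagreement was not tested.

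Dnmt3b was read by 1 probe at chr2:153513083-153513142 (mm9, plus strand), with signals of 70.7, 450 and 441 and scaled levels of 0.238 (adult liver), 1.17 (fetal liver) and 0.493 (bone marrow). In the reported scaling its bone marrow level lay between the 2 livers, 2.36-fold below fetal and 2.07-fold above adult liver. Each gap was wider than its spot error, 0.20 and 0.23 on the log2 scale. As fetal liver minus bone marrow the log2 difference was 1.24, against 0.83 with scaling to the median and -1.11 with spike-ins. The difference between the livers was 2.29 on the log2 scale and lost the 4-fold mark with normexp (1.63). The log2 differences of Dnmt3b and Dnmt3a between the livers were 0.40 apart with a spot error of 0.31, and this gap was 0.06 when the probes of Dnmt3a were averaged, so the gap depended on the choice of probe. Between fetal liver and bone marrow Dnmt3b was further towards fetal liver than Dnmt3a by 0.82, or by 0.45 with averaged probes.

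The catalytic subunits of Polycomb repressive complex 2 went apart. Ezh2 was measured at chr6:47482047-47482942 (mm9, minus strand, across an exon junction), with signals of 34.8 (adult liver), 1650 (fetal liver) and 4360 (bone marrow) and scaled levels of 0.117, 4.27 and 4.87. Both blood-forming tissues were far above adult liver, by 5.19 and 5.38 on the log2 scale with a spot error of 0.29 each. They differed from each other by 0.19 towards bone marrow (-0.19 as fetal liver minus bone marrow), within the spot error of 0.20. The spot error does not cover the scaling, and this difference was -0.61 with scaling to the median and -2.54 with spike-ins.

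Ezh1, at chr11:101053137-101053196 (mm9, minus strand), gave signals of 71.2, 59.5 and 289, with scaled levels of 0.240 (adult liver), 0.154 (fetal liver) and 0.323 (bone marrow). It was the only gene of the set with its lowest level in fetal liver, 1.56-fold below adult liver and 2.10-fold below bone marrow. The log2 differences were -0.64 and -1.07, with spot errors of 0.24 and 0.22. As fetal liver minus bone marrow, the value was -0.39 with normexp, -1.48 with scaling to the median and -3.42 with spike-ins. From adult liver to bone marrow Ezh1 differed by 0.43, which was -0.06 with normexp and 3.19 with spike-ins. The ratio of Ezh2 to Ezh1 was thus 56.7-fold higher in the fetal than in the adult organ (5.83 on the log2 scale, spot error 0.37) and 30.9-fold higher in bone marrow than in adult liver. With normexp these changes were 4.21 and 4.11. This ratio shows that the 2 genes changed unequally, and each gene has a single probe.

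The 2 obligate partners of Ezh2 and Ezh1 did not follow a common pattern. Eed, which binds methylated lysine 27, had its probe at chr7:97113321-97116230 (mm9, minus strand, across an exon junction), with signals of 97, 273 and 2170 and scaled levels of 0.327, 0.707 and 2.43. Its level was highest in bone marrow, 7.42-fold above adult liver and 3.43-fold above fetal liver, while the livers differed by 2.16-fold. The difference between fetal liver and bone marrow was -1.78 on the log2 scale and passed the 4-fold mark with scaling to the median (-2.19) and to spike-ins (-4.13).

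Suz12, the zinc finger subunit that holds the complex together, was highest in fetal liver in the reported scaling. Its brighter probe at chr11:79847251-79847310 (mm9, plus strand) gave 356, 2350 and 4060, or scaled levels of 1.20, 6.09 and 4.54, and its second probe at chr11:79826978-79827037 gave 30.1, 187 and 223. Fetal liver was 5.07-fold above adult liver by the first and 4.77-fold by the second. Bone marrow was above adult liver by 3.78-fold and 2.46-fold. The log2 difference between fetal liver and bone marrow was 0.42 by the first probe and 0.96 by the second. By the first probe it was 0.01 with scaling to the median and -1.93 with spike-ins. From fetal liver to bone marrow, the ratio of Eed to Suz12 was 4.60-fold higher, a comparison chosen after the values were seen.

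Levels of 12 genes known for cell division were set beside these differences. All 12 proliferation genes passed 4-fold from adult to fetal liver, at a median log2 difference of 5.42 and a range of 2.86 to 9.29. All 12 also did so from adult liver to bone marrow, at a median of 5.15. Their summed scaled level was 10.3 (adult liver), 455 (fetal liver) and 421 (bone marrow), and Top2a and Cdk1 were dim (not well above background) in the adult organ. Between the livers, the largest measured differences were those of the proliferation antigen gene Mki67 (624-fold) and the cyclin gene Ccna2 (258-fold), and for the topoisomerase gene Top2a the bound was at least 64.6-fold.

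Relative to the proliferation median between the livers, Uhrf1 lay above by 3.28 on the log2 scale and Ezh2 close to it at -0.24. Dnmt1 lay below it at -1.58, and Suz12 (-3.08), Dnmt3b (-3.13), Dnmt3a (-3.53), Eed (-4.31) and Ezh1 (-6.06) further below. The same order between Uhrf1, Ezh2 and Dnmt1 held from adult liver to bone marrow, at 2.39, 0.22 and -1.56. Between fetal liver and bone marrow the proliferation median was 0.31, and only Cdk1 of the 12 passed 4-fold, towards bone marrow. The distance of Ezh2 from the proliferation median depended on the background correction. With normexp that median was 4.79 between the livers, Uhrf1 (6.94) lay above it, and Ezh2 (3.77) and Dnmt1 (3.42) both lay below. The part of dividing cells in the differences of the 8 genes was not tested, nor was that of the blood cell types whose markers are given above.

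**Figure D3:**
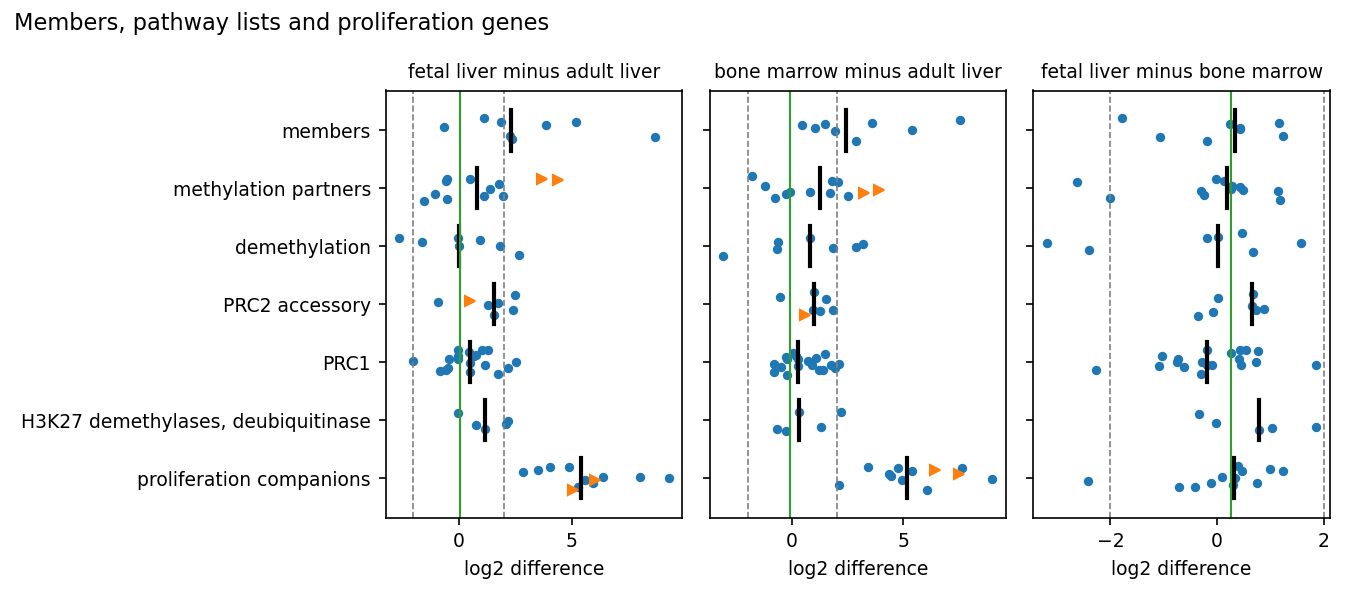
Log2 differences of single genes in each list for each pair of tissues, with bounds as orange triangles, the list median as a black bar, the median of all genes as a green line and 4-fold as dashed lines. Proliferation genes lie at a median of 5.42 between fetal and adult liver and 5.15 between bone marrow and adult liver, and the medians of the 5 lists of partner genes lie between 0.00 and 1.58 in the former.

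Of 51 further genes of the same pathways in 5 lists, 50 could be compared. Between fetal and adult liver 9 passed 4-fold towards the fetal and 2 towards the adult organ, with a median log2 difference of 0.71. Between bone marrow and adult liver 8 were higher in bone marrow and 1 in adult liver, with a median of 0.81. Between fetal liver and bone marrow none was higher in fetal liver and 5 were higher in bone marrow, with a median of 0.08. Of all genes compared between the livers, 12.1% passed 4-fold towards the fetal and 14.1% towards the adult organ. Between bone marrow and adult liver, 15% were higher in bone marrow and 18.8% in adult liver. Between fetal liver and bone marrow, 9.33% were higher in fetal liver and 8.3% in bone marrow. The medians over all genes were 0.06, -0.09 and 0.26 in this order.

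Among 12 partners and readers of DNA methylation, Hells, a chromatin remodeller needed for methylation, did not stand well above background in adult liver, which fetal liver exceeded at least 20.7-fold and bone marrow at least 14.8-fold. Mbd4, a glycosylase that binds methylated CpG pairs, showed bounds of at least 12.9-fold and at least 9.50-fold, and its second probe, dim in adult liver too, gave lower bounds of 0.15 and 0.76 on the log2 scale, which do not settle whether it passed 4-fold. Dnmt3l, the catalytically inactive cofactor of the de novo enzymes, was highest in bone marrow, with scaled levels of 0.105 (adult liver), 0.0712 (fetal liver) and 0.440 (bone marrow). It was 6.18-fold above fetal liver and 4.19-fold above adult liver there. The methyl-CpG reader Mbd2 was 4.03-fold and 5.71-fold higher in bone marrow than in fetal and adult liver by the reported probe. Its second probe gave -0.75 on the log2 scale as fetal liver minus bone marrow, and against adult liver, where it was dim, only a lower bound of 0.46. Uhrf2, the paralogue of Uhrf1, was 2.16-fold higher in fetal than adult liver by the reported probe and 2.20-fold and 1.73-fold by both others. Between bone marrow and adult liver its probes disagreed, with log2 differences of -0.08, 1.75 and -0.06.

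Of 7 demethylation genes, the dioxygenase gene Tet1 went against the methyltransferases, with scaled levels of 2.37 (adult liver), 0.381 (fetal liver) and 0.276 (bone marrow). By its 1 probe, adult liver stood 6.22-fold above fetal liver and 8.57-fold above bone marrow. Its relative Tet3 was 3.60-fold higher in fetal liver by the reported probe but 1.34-fold lower by another measured one, and Tet2 had a log2 difference of 0.00 between the livers. Gadd45a, a stress-induced gene linked to demethylation, was 6.41-fold higher in fetal liver and 7.33-fold higher in bone marrow than in adult liver. Gadd45b was highest in bone marrow, 9.14-fold above fetal and 9.06-fold above adult liver, and both of its probes passed 4-fold. Apobec1, a cytidine deaminase, was 5.29-fold higher in bone marrow than in fetal liver, and its other probe, dim in fetal liver, gave a bound of at least 3.28-fold in the same direction.

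Among 7 accessory subunits of Polycomb repressive complex 2, Mtf2 (5.70-fold) and Phf19 (5.28-fold), both of which help to bring the complex to chromatin, were higher in the fetal organ than in the adult one, and all 4 probes of Mtf2 passed 4-fold. Their paralogue Phf1 lay on the adult side by 1.87-fold, with scaled levels of 2.29, 1.23 and 1.58 in adult liver, fetal liver and bone marrow. The list median was 1.58 between the livers, 0.99 between bone marrow and adult liver and 0.65 between fetal liver and bone marrow.

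Of 19 genes of Polycomb repressive complex 1 that could be compared, Phc1 (5.80-fold) and Cbx6 (4.59-fold) passed 4-fold from adult towards fetal liver. Of the 2 other probes of Phc1, 1 gave 2.49-fold and 1, dim in adult liver, a bound of at least 1.04-fold, and 1 of the 2 others of Cbx6 passed 4-fold. The catalytic subunit gene Rnf2 was higher in fetal than adult liver by 2.24-fold and 1.38-fold with its 2 probes. The probes of Ring1, its paralogue, gave opposite directions, with log2 differences of -0.57 and 0.11. Among 5 genes of the opposing enzymes, the lysine 27 demethylase gene Kdm6a was 4.32-fold and Asxl1, the cofactor of the H2A deubiquitinase, 4.51-fold higher in fetal liver. The adult liver level of Kdm6a (0.0725) lay just above the lowest that was well above background there (0.0637). Its other probe could not be compared, so the size of this fold is uncertain. Asxl1 was also 4.59-fold higher in bone marrow than in adult liver, and its 2 other probes gave 2.29-fold and, with adult liver dim, at least 2.82-fold between the livers.

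Likeness of pattern was measured as the root mean square difference of the 3 log2 levels after subtraction of each gene's mean, over 11688 genes well above background in all 3 tissues. With 3 points per gene many patterns coincide, and nearness says nothing of function. Nearest to Dnmt1 were Ube2s (0.026) and H4c1 (0.041), and 79 genes lay within 0.25. Nearest to Ezh2 were Rbl1 (0.012) and Map4k1 (0.058), with 26 within 0.25. Only 4 genes lay within 0.25 of Uhrf1, the nearest being the embryonic globin gene Hbb-y (0.15) and Csta1 (0.16).

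Patterns of the other members were more common. Within 0.25 lay 518 genes for Dnmt3a (nearest Rnps1 and Poli), 448 for Ezh1 (Tgfbr1 and Inava), 313 for Suz12 (Psme3 and Gdpd1), 264 for Dnmt3b (Riok1 and Chd7) and 93 for Eed (Nsmce2 and Man1c1). Between members, a description added after the data were seen, the closest pair was Dnmt3a and Suz12 at 0.21, followed by Dnmt3a and Dnmt3b at 0.33, and the furthest was Uhrf1 and Ezh1 at 3.98.

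**Figure D4:**
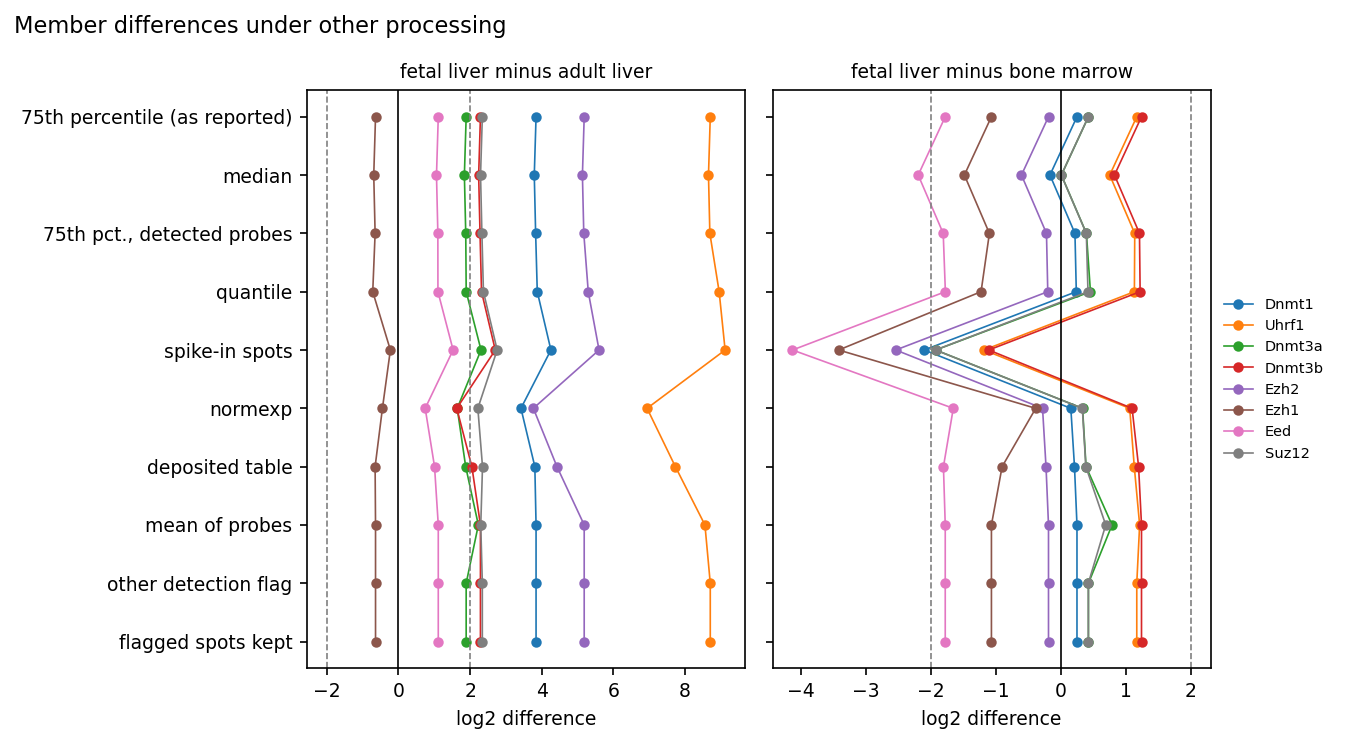
Log2 differences of the 8 genes under the reported processing and 9 alternatives, for fetal against adult liver and fetal liver against bone marrow, with dashed lines at 4-fold and 1 line per gene. Between the livers Uhrf1, Ezh2 and Dnmt1 keep the first 3 places under all settings plotted, normexp draws the largest differences inward (Uhrf1 6.94, Ezh2 3.77), and spike-in scaling moves all 8 genes towards bone marrow in the right panel.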

How the data were processed

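Total RNA of 3 mouse tissues was measured on 3 Agilent 1-colour arrays, all on 1 slide. The authors extracted spot values with Agilent Feature Extraction 10.5.1.1, per the submitters' processing notes. Per the file headers, the deposited scanner files hold the processed signal and its error as intensity on a linear scale, background-corrected and not normalized between arrays. In the deposited table of the whole series, the authors' raw intensity column is in fact the signal's error (equal within 1% for 45018 of 45018 spots on every array), and the normalized column is the ratio of this error to a constant per array (29.3, 37.8 and 85.3), so it served only as an alternative. Its fold column was not used.

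From the processed signals, log2 levels minus the array's 75th percentile were computed with Python 3.11.15, numpy 2.4.6 and pandas 2.3.3. Spots flagged as outliers themselves (75, 71 and 80 in adult liver, fetal liver and bone marrow) were left out. A wider choice that also used the flags of the local background was dropped after its output was seen, because it removed known marker genes, and the reported values of the 8 genes were the same under both. Spots of a probe were averaged. Replicate spots of 1 probe had a median SD of 0.068, 0.062 and 0.052 on the log2 scale in adult liver, fetal liver and bone marrow, a measure of technical noise within an array only. Probes were named through accession or symbol by a RefSeq table (GRCm38.p6), leaving 8489 of 41174 unnamed. Probe positions are in mm9, as the array file gives them, and promoter positions in GRCm38.p6, without conversion. Where a gene had several probes, the one detected (well above background) on most arrays was reported, and the brightest in a tie. Where 1 side was not well above background, the fold is a lower bound, written with "at least" before the number. It was taken against the dim signal itself or the array's lowest detected signal, whichever was higher. The number of arrays limits the precision, and no test, p-value or SD across samples exists. Named were all members, list genes past 4-fold (at most 4 per list and comparison), at most 4 proliferation genes and the 2 nearest patterns per member. Uhrf2, Tet2, Tet3, Phf1, Rnf2 and Ring1 were added after their values were seen. The members, lists and rules were chosen with earlier results of these data known. The scripts were tested on simulated data. The normexp alternative used limma 3.58.1 in R 4.3.3 with an offset of 50. Probe sequences and protein sequences were not analysed here. Some list genes that the rule would name are not reported here.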

Additional observations from a re-analysis of the deposited data

How the results depend on the processing

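With 1 array per tissue and no replicate spread, a member or list count was judged by whether it stayed within 1.5 times, a single gene by its direction and its side of 4-fold, and a ratio of 2 genes by whether it moved by more than the spot error. No paired analysis was possible because each tissue has 1 array and no result comes from a test. Of 10 alternatives, none changed the direction of a member between fetal and adult liver. Not all of them could: the 2-fold mark leaves the values as they are. Another detection flag and keeping the flagged spots also left the values of all 8 members unchanged. Averaging probes cannot move a gene with 1 probe, and the deposited column holds the error of the signal. Scaling to the median gave 1 member past 4-fold between fetal liver and bone marrow and 15 pathway genes between bone marrow and adult liver. In the former, 6.75% of all genes passed towards fetal liver and 10.6% towards bone marrow. In the latter, 18.4% passed towards bone marrow and 15.3% towards adult liver. Spike-in scaling gave 4 members and 29 pathway genes between fetal liver and bone marrow. There 2.16% of all genes passed towards fetal liver and 55% towards bone marrow. It gave 8 members and 44 pathway genes between bone marrow and adult liver. There 64.9% of all genes passed towards bone marrow and 5.97% towards adult liver. Between fetal liver and bone marrow, spike-in scaling turned Dnmt1 (-2.10), Dnmt3a (-1.93), Dnmt3b (-1.11), Uhrf1 (-1.18) and Suz12 (-1.93) towards bone marrow. Of these only Dnmt1 passed 4-fold. A 2-fold mark gave 4 members and 13 pathway genes between fetal liver and bone marrow. Of all genes, 25.1% passed it there towards fetal liver and 17% towards bone marrow. Between bone marrow and adult liver it gave 7 members and 24 pathway genes, with 27.4% of all genes towards bone marrow and 32.6% towards adult liver. Between the livers it gave 27 pathway genes, with 27% of all genes towards fetal and 26.8% towards adult liver. With normexp the pathway counts were 6 (fetal against adult liver), 3 (fetal liver against bone marrow) and 5 (bone marrow against adult liver). Between the livers, 7.91% of all genes then passed towards fetal liver, against 12.1% in the reported processing. The share towards adult liver was also below its reported 14.1%. Between fetal liver and bone marrow, 6.09% passed towards fetal liver and 5.87% towards bone marrow. Between bone marrow and adult liver, 11.2% passed towards bone marrow and 15.3% towards adult liver. With normexp Dnmt3b lost 4-fold between the livers (1.63). The same correction moved Ezh2 minus Ezh1 to 4.21, 0.10 and 4.11, Dnmt3b minus Dnmt3a to -0.013 (fetal against adult liver) and -0.78 (bone marrow against adult liver), and Uhrf1 minus Dnmt1 to 3.52 and 2.62. The deposited table gave 5.08 and 4.40 for Ezh2 minus Ezh1 and 3.92 and 3.003 for Uhrf1 minus Dnmt1 against adult liver, and the mean of probes gave 0.058 and 0.45 for Dnmt3b minus Dnmt3a in fetal against adult liver and fetal liver against bone marrow. Except where a sentence gives a cause, it was not tested. Adult liver signals of Uhrf1 (23.9), Ezh2 (34.8) and the dim probes of Dnmt3a and Suz12 lie near the lowest signal well above background (18.9), which limits the size of their folds.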
